A study of Mus musculus with 13 samples.

Results

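The genes that hold endothelial cells together, and those that let leukocytes take hold of them, were followed in mouse lung after 5 days of high oxygen. The 10 genes were found by their symbols among the 32544 symbols of the deposited count table: Sele, Selp, Icam1 and Vcam1 as adhesion genes, Pecam1, Cdh5, Cldn5, Esam and Jam2 as junction genes, and Icam2, a leukocyte integrin ligand placed in neither set. All 10 symbols were present, and 9 of them were among the 12496 genes with enough counts to be tested. Male WT C57BL/6J mice, 7 weeks old when bought, breathed either 21% oxygen (Normoxia, 7 libraries) or 80% oxygen (Hyperoxia, 6 libraries) for 5 days, after which the lungs were flushed with cold DPBS and frozen. Total RNA of whole lung was read with Quant-seq, which counts the 3′ ends of polyadenylated transcripts. All mice carried the same genotype, and the 2 groups differed in oxygen alone as far as the labels state.

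Endothelial cells line the vessels and form a barrier. Selectins on their surface slow passing leukocytes, and the immunoglobulin-like ligands ICAM and VCAM then bind leukocyte integrins and hold the cells firmly. Between neighbouring endothelial cells, VE-cadherin (Cdh5) forms the adherens junction, claudin-5 (Cldn5) seals the tight junction, and PECAM-1, ESAM and JAM-B (Jam2) are further contact molecules through which leukocytes may pass. The lung capillary bed is the largest endothelial surface of the body, and it is a known early target of oxygen injury.

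Total counts ran from 1607111 to 3387736 in the normoxic and from 2029006 to 4540288 in the hyperoxic libraries. A count of 3, taken as the lowest level that can be told from 0, corresponded to 0.656 to 1.84 CPM (counts scaled to a common library total). Hyperoxia replicate 1 stood apart: its log2 CPM correlated with those of the other libraries at 0.721 to 0.833, against 0.854 to 0.967 among the other 12. Its summed alveolar macrophage markers were 156 CPM against at least 426 in the other hyperoxic libraries, and its neutrophil markers 48.3 against at least 90.6. Its pan-endothelial markers summed to 11605 CPM against at most 7941, most of it Cd93 (5550 CPM) and Egfl7 (3335 CPM), while Ramp2, Calcrl, Clec14a, Cyyr1 and Robo4 of the same list had their lowest hyperoxic level in that library. Calls that change without this library are given both ways. All levels are CPM after scaling by the trimmed mean of M values (TMM). Changes are log2 fold changes of hyperoxia over normoxia from edgeR's quasi-likelihood test, with Benjamini-Hochberg adjusted p-values over all genes tested and a threshold of 0.05.

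Of the 9 tested genes, Selp alone passed the test, and it rose 3.68-fold. Over all genes tested, 11.8% were called higher and 10.8% lower, and 22.6% in either direction, so that 1 of 9 higher and 0 of 9 lower is near the background share. Icam1 and Cldn5 were called higher only when Hyperoxia replicate 1 was left out, which gave 3 of 9 higher beside 15.2% of all genes called higher, 13.3% lower and 28.5% in either direction in that fit. Pecam1 was called lower only when Hyperoxia replicate 5 was left out. Vcam1, Cdh5, Esam, Jam2 and Icam2 passed in neither direction in any of the fits made. By edgeR, no tested gene of the 10 was lower at an unadjusted p under 0.05 either (0 of 9), and DESeq2 and both limma fits also called 0 lower.

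**Figure D1:**
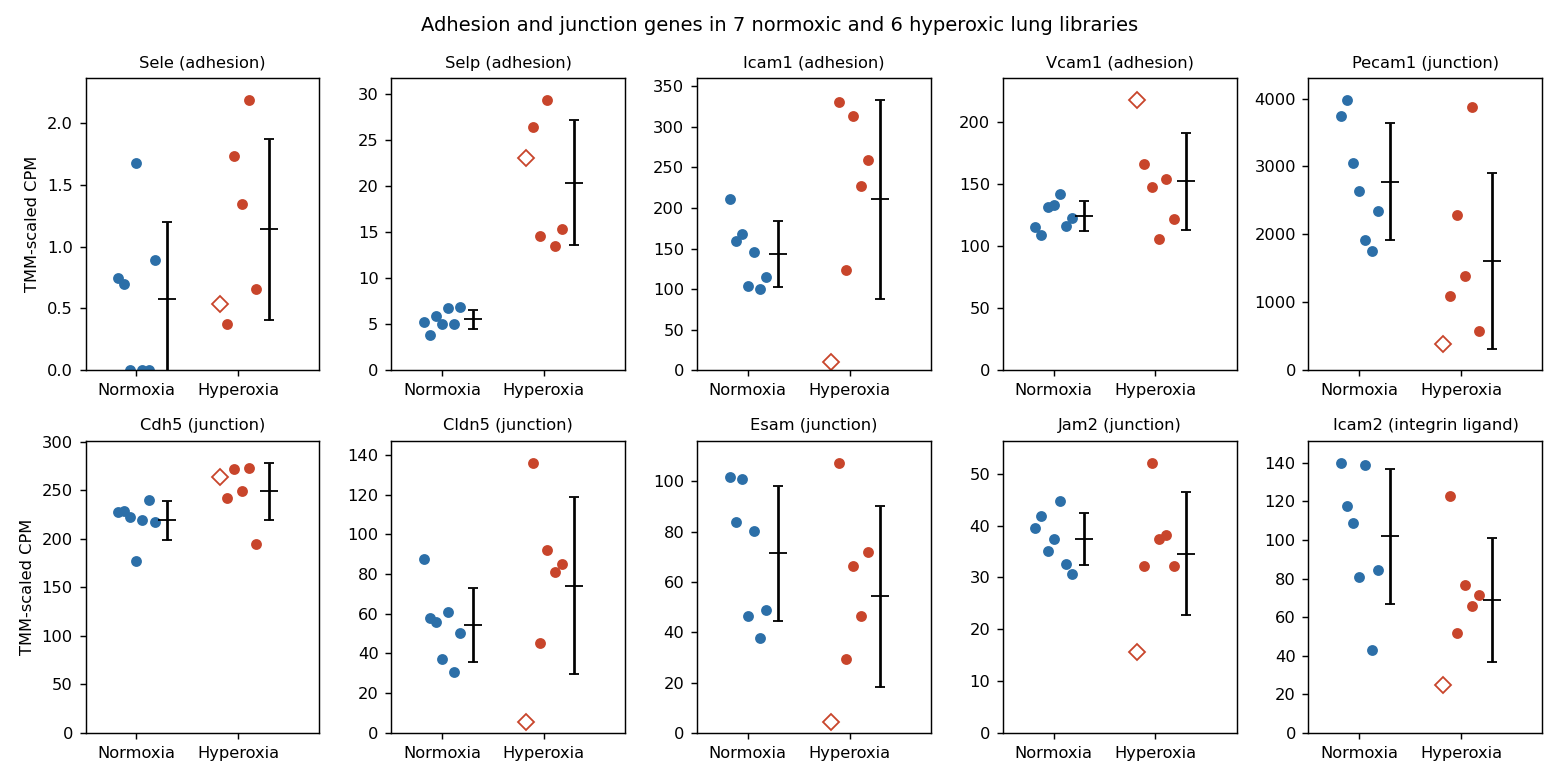
Level of each of the 10 genes in every library, in TMM-scaled CPM on a linear axis from 0 with its own range for each gene. Points are libraries (7 normoxic, 6 hyperoxic), the open diamond is Hyperoxia replicate 1, and the dash with bars is the mean ± SD (for Sele in normoxia the bar is cut off at 0). Selp is the gene whose groups do not overlap, and the diamond is the lowest hyperoxic point for Icam1, Pecam1, Cldn5, Esam, Jam2 and Icam2 and the highest for Vcam1.

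Selp encodes P-selectin, which endothelial cells keep in storage granules beside von Willebrand factor and bring to the surface on stimulation, and which platelets store as well. Its level in normoxia was 3.84 CPM in the lowest library, 5.23 at the median and 6.84 in the highest. In hyperoxia it was 13.4, 19.2 and 29.3 CPM. Every hyperoxic library lay above every normoxic one, a separation seen upward in 5.60% and downward in 5.23% of all genes tested.

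Normoxic libraries averaged 5.51 ± 1.06 CPM (SD, n = 7), and hyperoxic libraries averaged 20.4 ± 6.81 CPM (SD, n = 6). The log2 fold change of Selp was 1.88 (SE 0.25, 95% confidence interval 1.36 to 2.40, adjusted p = 6.79e-05 by edgeR). An exact two-sided permutation test of its mean log2 CPM gave p = 0.000583, the smallest that the 1716 possible splits allow. The counts behind these levels were small, from 11 to 109 per library.

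The rise of Selp did not rest on 1 library. It was 1.86 on the log2 scale without Hyperoxia replicate 1, and ranged from 1.76 to 1.99 as each library was left out in turn. The library names fall into 2 sets, lettered B to M and O to S, and hyperoxic minus normoxic log2 CPM came to 1.85 in the first and 1.53 in the second. Whole-lung RNA cannot tell more cells of a kind from more RNA per cell, here or for any gene below. Of 8 platelet markers, 4 were tested, with 0 called higher and 1 lower, and their summed level was 55.5 to 90.7 CPM in normoxia and 40.6 to 74.1 CPM in hyperoxia. Gp9, Treml1 and Tubb1 of this list averaged under 1 CPM, and Gp1ba averaged 0.999 CPM in normoxia and 1.09 CPM in hyperoxia. The others averaged more, in normoxia and hyperoxia: Pf4 20.4 and 18.5, Ppbp 26.1 and 11.1, Gp1bb 13.6 and 19.8, and Itga2b 7.27 and 7.13 CPM. The part of platelets in the level of Selp was not tested. Venous markers, 5 of 6 tested, had 1 called higher and 3 lower, but summed to 1165 to 1617 CPM in normoxia and 4857 to 8621 CPM in hyperoxia. The gain in that sum was that of Lyve1, a gene of lymphatic and lung endothelium, at 625 ± 148 CPM (SD, n = 7) under normoxia against 5508 ± 1791 CPM (SD, n = 6), and the part of this list in the level of Selp was not tested. Of 15 pan-endothelial markers, 5 were called higher and 7 lower, and their sum was 3856 to 4388 CPM in normoxia and 5332 to 11605 CPM in hyperoxia (at most 7941 without Hyperoxia replicate 1), without overlap. Most of the gain in that sum was that of Cd93, at 755 ± 59.2 CPM (SD, n = 7) under normoxia against 3478 ± 1231 CPM (SD, n = 6). The median log2 fold change of the 15 markers was -0.49. Relative to the mean log2 CPM of these markers in each library, a reference whose members went both ways, the log2 fold change of Selp was 1.98 (adjusted p = 3.82e-05 by edgeR), and the part of the endothelial share of the lung was not tested. Selp overlaps 2 annotated genes on the opposite strand, Gm16587 and Gm16548, and no source says that reads were counted by strand.

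Sele, the gene of E-selectin, which endothelial cells make mainly after stimulation by cytokines, was barely detected. Its counts ran from 0 to 7 over the 13 libraries, and they were at or below the floor of 3 counts in 6 of 7 normoxic and 3 of 6 hyperoxic libraries. The level was 0, 0.699 and 1.68 CPM in the lowest, median and highest normoxic library and 0.378, 1.00 and 2.19 CPM in hyperoxia, so that the groups overlapped. Sele did not pass the filter on low counts. In a fit without that filter its log2 fold change was 0.96 with an adjusted p of 0.441 by edgeR, and a difference was not detectable at this depth. Sele and Selp lie side by side on chromosome 1 (GRCm38, Sele at chr1:164048234-164057677 and Selp at chr1:164115264-164150026, both on the plus strand).

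The promoters of 4 of the 10 genes (Sele, Selp, Icam1 and Cldn5) were found in a RefSeq table for GRCm38.p6, each with 250 bases before and 50 bases from the start on. They were searched on both strands for an NF-κB consensus of 10 bases (3 G, a purine, 2 of any base, 2 pyrimidines and 2 C, with no mismatch allowed), for the ETS motif written as AGGAAG or CGGAAG, and for TATAAA. No stretch of the 4 promoters had exactly these letters of the NF-κB consensus, which says nothing of sites that differ from it, and the consensus is in 8.50% of the 32851 promoters of that table. The ETS motif is in 46.5% and TATAAA in 13.6%. The short stretches around each match are shown because the gene that rose, Selp, and its barely detected neighbour Sele both hold ETS letters, and the matched letters are in capitals.
Sele, ETS, chr1:164048159-164048184, plus strand: tatgactcacAGGAAGccagctcccc
Sele, TATAAA, chr1:164048175-164048200, plus strand: ccagctccccTATAAAgaggctccag
Selp, ETS on the opposite strand, chr1:164115190-164115215, plus strand: gcaacagctcCTTCCTagctgccaac
Selp, ETS, chr1:164115273-164115298, plus strand: gaaagcgaatAGGAAGttgttttgtt
Icam1, TATAAA, chr9:21015943-21015968, plus strand: agccagagacTATAAAagcgccgccc
In Sele the ETS letters began 65 bases and TATAAA 49 bases before the start. In Selp the letters began 64 bases before and 19 bases after it, and in Icam1 TATAAA began 13 bases after the RefSeq start. Cldn5 held none of the 3 motifs in this window. These are matches of letters, not sites shown to be used.

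Icam1 encodes the main endothelial ligand of the leukocyte integrins LFA-1 and Mac-1, and alveolar type 1 cells make it as well. Its level in normoxia was 101, 146 and 212 CPM in the lowest, median and highest library, with a mean of 144 ± 40.4 CPM (SD, n = 7). In hyperoxia it was 10.7, 243 and 330 CPM, with a mean of 211 ± 122 CPM (SD, n = 6). The hyperoxic libraries went both ways: 4 of 6 lay above every normoxic library and 1, replicate 1, lay far below them all.

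With all 13 libraries the log2 fold change of Icam1 was 0.56 (SE 0.45, 95% confidence interval -0.40 to 1.52, adjusted p = 0.416 by edgeR). Without Hyperoxia replicate 1 it was 0.82 (SE 0.22, interval 0.35 to 1.29, adjusted p = 0.0113), a 1.76-fold rise to 251 ± 82.3 CPM (SD, n = 5). The direction of the mean log2 CPM differed between the letter sets, at -0.99 in B to M and 1.29 in O to S. With that library left out the B to M value was 0.39. Over the 22 alternatives the log2 fold change ran from -0.028 to 0.82, and it passed the threshold in 1 of them. Alveolar type 1 markers, 7 of 7 tested, had 1 called higher and 1 lower, and summed to 2597 to 3001 CPM in normoxia and 3620 to 4678 CPM in hyperoxia. The gain in that sum was that of Akap5 (1194 ± 133 CPM, SD, n = 7, under normoxia against 2734 ± 359 CPM, SD, n = 6), while Ager had 604 ± 159 and 557 ± 165 CPM. Their part in the level of Icam1 was not tested.

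Vcam1 encodes VCAM-1, a ligand of the integrin VLA-4 that cytokines induce on endothelium and that mesothelial and stromal cells also make. Normoxic libraries held 109, 123 and 142 CPM at the lowest, median and highest (mean 124 ± 11.8, SD, n = 7), and hyperoxic ones 106, 151 and 218 CPM (mean 152 ± 39.0, SD, n = 6). The groups overlapped, with 4 of 6 hyperoxic libraries above every normoxic one and 1 below. Vcam1 had a log2 fold change of 0.29 (SE 0.16, 95% confidence interval -0.04 to 0.62, adjusted p = 0.200 by edgeR). The highest library was Hyperoxia replicate 1, and without it the change was 0.18 (adjusted p = 0.332). Mesenchymal markers, 7 of 8 tested, had 3 called higher and 0 lower, and summed to 702 to 1103 CPM in normoxia and 1223 to 1686 CPM in hyperoxia. Mesothelial markers, 4 of 5 tested, had 0 higher and 1 lower, at 99.0 to 170 against 47.9 to 127 CPM. The part of either list in the level of Vcam1 was not tested.

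Icam2, which resting endothelium makes without stimulation and which leukocytes and platelets also carry, leaned the other way. Its level was 42.9, 109 and 140 CPM in the lowest, median and highest normoxic library and 24.7, 68.6 and 123 CPM in hyperoxia. One hyperoxic library, replicate 1, lay below every normoxic one and none lay above. The log2 fold change was -0.56 (SE 0.31, 95% confidence interval -1.22 to 0.10, adjusted p = 0.218 by edgeR) and -0.37 without that library (adjusted p = 0.304). By letter set, hyperoxic minus normoxic log2 CPM came to -1.08 (B to M) and 0.24 (O to S). Pan-leukocyte markers had 0 of 5 called higher and 4 lower, and summed to 406 to 564 CPM in normoxia and 187 to 301 CPM in hyperoxia. Their part in the levels of Icam2, and of Pecam1 below, was not tested.

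**Figure D2:**
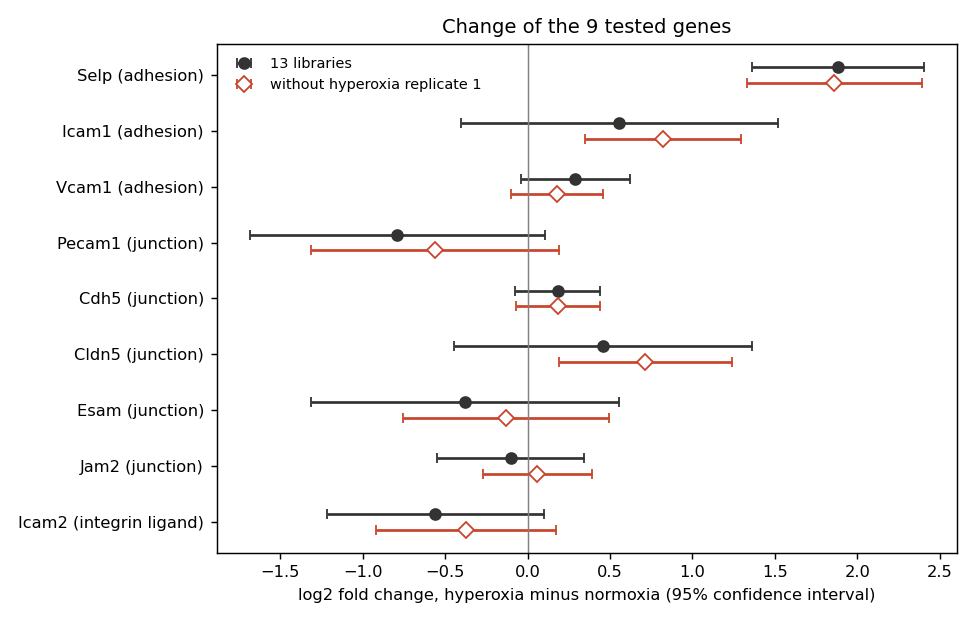
Log2 fold change of hyperoxia over normoxia for the 9 tested genes, with 95% confidence intervals from edgeR's quasi-likelihood test. Filled circles use 13 libraries and open diamonds leave out Hyperoxia replicate 1. The interval of Selp lies above 0 in both fits (from 1.36 with all libraries), and those of Icam1 and Cldn5 lie above 0 only without that library (from 0.35 and 0.19).

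Pecam1 (CD31), the contact molecule of endothelium that platelets and leukocytes also bear, varied widely in hyperoxia. In normoxia its level was 1760, 2633 and 3978 CPM in the lowest, median and highest library, with a mean of 2773 ± 862 CPM (SD, n = 7). In hyperoxia it was 392, 1245 and 3873 CPM, with a mean of 1605 ± 1299 CPM (SD, n = 6). The coefficient of variation of the CPM was 31.1% in normoxia and 80.9% in hyperoxia. Of the 6 hyperoxic libraries, 4 lay below every normoxic one, replicate 3 lay inside their range, and replicate 5 reached nearly the normoxic maximum.

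The log2 fold change of Pecam1 was -0.79 (SE 0.42, 95% confidence interval -1.68 to 0.10, adjusted p = 0.198 by edgeR). The exact two-sided permutation test of its mean log2 CPM gave an unadjusted p of 0.0402, for a difference of -1.14. This was 1 of 10 such tests, 1 for each gene. Without Hyperoxia replicate 5 the log2 fold change was -1.26 and the adjusted p 0.0263, and without Hyperoxia replicate 1 it was -0.56 (adjusted p = 0.259). By letter set, hyperoxic minus normoxic log2 CPM came to -1.57 in B to M (-0.90 without Hyperoxia replicate 1) and to -0.47 in O to S.

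Cdh5, the VE-cadherin gene and the most specific endothelial junction gene of the set, was steady. It measured 177, 222 and 240 CPM in the lowest, median and highest normoxic library (mean 219 ± 19.8, SD, n = 7) and 194, 256 and 272 CPM in hyperoxia (mean 249 ± 29.4, SD, n = 6). The coefficient of variation was 9.05% and 11.8%, the smallest of the 10 genes in each group. Of the hyperoxic libraries, 5 of 6 lay above every normoxic one, replicate 1 among them, although the shift was small. Cdh5 had a log2 fold change of 0.18 (SE 0.12, 95% confidence interval -0.07 to 0.44, adjusted p = 0.307 by edgeR). Cdh5 overlaps Gm29682 on the opposite strand, as Icam1 does Gm47079 and Vcam1 does Gm43109, and Jam2 overlaps Gm25908 on its own strand.

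Cldn5, which limits the passage of small molecules between endothelial cells, behaved like Icam1 rather than like Cdh5. Its level was 30.7, 55.9 and 87.7 CPM in the lowest, median and highest normoxic library (mean 54.3 ± 18.4, SD, n = 7). In hyperoxia it was 5.36, 83.0 and 136 CPM (mean 74.2 ± 44.4, SD, n = 6), with 2 libraries above every normoxic one and replicate 1 below them all. The log2 fold change was 0.46 (SE 0.43, adjusted p = 0.482 by edgeR) with all libraries and 0.71 (SE 0.25, adjusted p = 0.0408), or 1.64-fold, without Hyperoxia replicate 1. By letter set, hyperoxic minus normoxic log2 CPM came to -0.80 in B to M, to 0.44 there without that library, and to 1.12 in O to S. Over the 22 alternatives the log2 fold change of Cldn5 ran from -0.019 to 0.71, and it passed the threshold in 1 of them. Without Hyperoxia replicate 2 it was 0.22 (adjusted p = 0.756 by edgeR).

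Esam and Jam2, both members of the JAM family of immunoglobulin-like contact proteins, overlapped widely between groups. Esam measured 37.6, 80.3 and 102 CPM in the lowest, median and highest normoxic library and 4.29, 56.4 and 107 CPM in hyperoxia. Its log2 fold change was -0.38 (SE 0.44, 95% confidence interval -1.31 to 0.55, adjusted p = 0.580 by edgeR), and -0.13 without Hyperoxia replicate 1. The hyperoxic minus normoxic log2 CPM of Esam differed in sign between the letter sets, at -1.67 in B to M (-0.49 without that library) and 0.49 in O to S. Jam2 measured 30.6, 37.3 and 44.7 CPM in normoxia and 15.5, 34.8 and 52.1 CPM in hyperoxia. Its log2 fold change was -0.10 (SE 0.21, interval -0.55 to 0.34, adjusted p = 0.774 by edgeR), and its sign turned to 0.060 without Hyperoxia replicate 1. Both genes had their lowest level of all 13 libraries in that library.

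The genes did not stand alike in Hyperoxia replicate 1. Against the median of the other 5 hyperoxic libraries, its log2 CPM differed by -4.52 for Icam1, -3.83 for Cldn5 and -3.76 for Esam. The difference was -1.83 for Pecam1, -1.51 for Icam2 and -1.23 for Jam2. It was 0.083 for Cdh5, 0.55 for Vcam1 and 0.57 for Selp. Both sets thus held genes that were far lower and genes that were level or higher in this library.

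Set against each other, the mean of the adhesion genes was higher relative to the mean of the junction genes in hyperoxia, but the single genes differed. Hyperoxic minus normoxic mean log2 CPM was 1.72 for Selp, 0.60 for Sele (near the floor), 0.26 for Vcam1 and 0.039 for Icam1. Among junction genes it was -1.14 for Pecam1, -0.78 for Esam, -0.18 for Jam2, 0.042 for Cldn5 and 0.18 for Cdh5. Of all these genes only Selp passed the edgeR test with all libraries. The mean log2 CPM of the 4 adhesion genes minus that of the 5 junction genes was -3.02 ± 0.28 (SD, n = 7) in normoxia, ranging from -3.31 to -2.60. It was -1.99 ± 0.46 (SD, n = 6) in hyperoxia, ranging from -2.33 to -1.09, with 6 of 6 libraries above every normoxic one. The difference of 1.03 is a description of genes chosen with results of these data known, and it was given no test. It was larger than the pooled SD between libraries, 0.37.

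The sets were also read apart. The adhesion mean was higher by 0.66 in hyperoxia, with 5 of 6 libraries above every normoxic one, and the junction mean was lower by 0.37, with overlapping ranges. The adhesion difference was 0.42 in letter set B to M and 0.96 in O to S, and the junction difference was -0.83 and 0.27, of opposite sign. Without Hyperoxia replicate 1 the junction difference was -0.026 and the gap between the sets was 0.85, with 5 of 5 libraries above. Leaving out Selp gave 0.67 with 5 of 6 above, leaving out Sele gave 1.05, and leaving out Pecam1 gave 0.84 with 5 of 6 above. With both Selp and Sele left out, so that Icam1 and Vcam1 alone stood for adhesion, the gap was 0.52 with 6 of 6 above. Within the library sets the gap was 1.25 in B to M (0.87 without Hyperoxia replicate 1) and 0.69 in O to S. Among single genes, the median log2 fold change was 0.56 over the 3 tested adhesion genes and -0.10 over the 5 junction genes, beside -0.03 over all genes tested. These medians are the values of Icam1 and Jam2, of which neither passed the test with all libraries. Without Hyperoxia replicate 1 the medians were 0.82, 0.060 and -0.008.

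**Figure D3:**
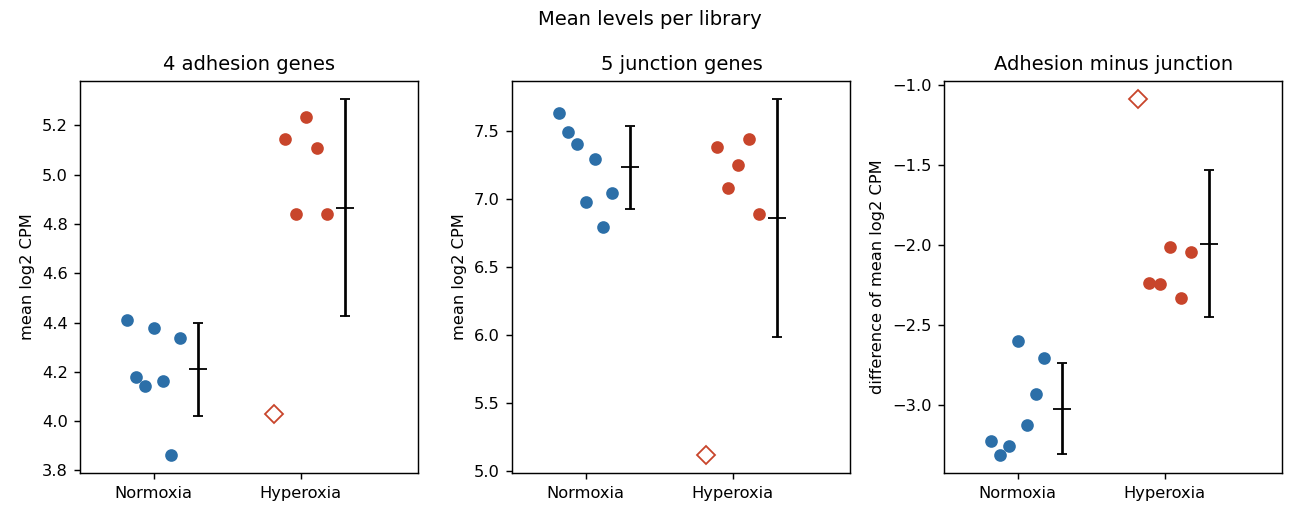
Mean log2 CPM of the 4 adhesion genes (left) and of the 5 junction genes (centre), and their difference (right), in each library. Points are libraries, the open diamond is Hyperoxia replicate 1, and the dash with bars is the mean ± SD of 7 normoxic or 6 hyperoxic libraries. In the right panel the hyperoxic libraries sit between -2.33 and -1.09 and the normoxic ones between -3.31 and -2.60.

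The genes also differed in how they moved from library to library. As a measure of likeness, the log2 CPM of each gene was centred on its mean over the 13 libraries, and the root mean square difference was taken between genes, so that 0 means the same pattern. Among the 36 pairs of tested genes, Icam1 and Cldn5 were closest at 0.221, followed by Vcam1 and Cdh5 at 0.261 and by Cdh5 and Jam2 at 0.438. Without Hyperoxia replicate 1, Icam1 and Cldn5 were again the closest pair, at 0.176, followed by Cdh5 and Jam2 at 0.220 and by Vcam1 and Cdh5 at 0.227. The order of the hyperoxic libraries from highest to lowest was replicate 2, 4, 6, 5, 3 and 1 for Icam1, for Cldn5 and for Icam2 alike, and Cldn5 and Icam2 also shared their order over the 7 normoxic libraries. These points share libraries and sequencing depth, and the likeness is a description.

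The search for the closest patterns among 10111 tested genes (mean log2 CPM 3 or more), over the 13 libraries, gave 3 genes for each member. The centring keeps the difference between the groups, so the genes found tend to share a member's direction by the way they were chosen. The changes of these genes, and the calls they share with a member, are therefore no separate result. Selp was most like Hbegf (0.297), Atf4 (0.325) and Rras2 (0.360), all of them higher in hyperoxia, with log2 fold changes of 1.67, 1.91 and 1.69 (adjusted p = 1.66e-06, 4.26e-07 and 2.01e-07 by edgeR). Pecam1 was most like Bhlhe41 (0.115), Dock10 (0.186) and Atf7ip (0.222). Icam1 was most like Id1 (0.187) and Nme2 (0.188) and then Cldn5. By edgeR with all libraries, none of these 6 neighbours of Pecam1 and Icam1 passed the test. Atf7ip was called lower by limma on the deposited log10 values (-1.27, adjusted p = 0.0480). Id1 (0.67, adjusted p = 0.0169 by edgeR) and Nme2 (0.89, adjusted p = 0.00428) were called higher without Hyperoxia replicate 1, as Icam1 was, and Bhlhe41 was called lower without Hyperoxia replicate 5 (-1.20, adjusted p = 0.0443), as Pecam1 was.

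The closest genes to Cldn5 were Cox6a1 (0.208), a subunit of cytochrome c oxidase, and Ecscr (0.215), an endothelial cell surface gene. Esam was closest to Rpl3 (0.200), a ribosomal protein gene, Pde6d (0.223) and Rnf187 (0.228). Vcam1 was closest to Ip6k2 (0.111), Purb (0.119) and Mrpl43 (0.138), and Cdh5 to Ppp6c (0.127), Vps4b (0.130) and Dennd2d (0.133). Jam2 was closest to Zdhhc8 (0.113), Selk (0.120) and Atl2 (0.133), and Icam2 to Slc25a28 (0.194), Ormdl3 (0.211) and Vamp8 (0.227). None of these 17 genes passed the test with all libraries. Cox6a1 was called higher without Hyperoxia replicate 1 (0.74, adjusted p = 0.0198 by edgeR), as Cldn5 was, and Vamp8 was called lower without Normoxia replicate 6 (-0.77, adjusted p = 0.0291).

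The leukocyte counter-receptors, the partners on the other side of the adhesion contact, had more falls than rises. Of 12 tested, 1 was called higher and 5 lower, with a median log2 fold change of -0.71. The shares over all genes tested, 11.8% higher and 10.8% lower, stand beside this and each list below. With a minimum of 10 counts in each library, which tests fewer genes, 3 were called lower. Itgal, the alpha chain of LFA-1 that binds Icam1 and Icam2, had 15.6, 20.9 and 37.4 CPM in the lowest, median and highest normoxic library and 1.39, 5.49 and 7.54 CPM in hyperoxia, which gave a log2 fold change of -2.22 (SE 0.33, adjusted p = 0.000201 by edgeR). Spn (CD43) fell by 1.81 (SE 0.31, adjusted p = 0.000698 by edgeR), with all hyperoxic libraries below all normoxic ones. Itgb1, the beta chain shared by VLA-4 and by integrins of almost every cell, rose by 1.09 (SE 0.17, adjusted p = 0.000294 by edgeR), whereas Itga4, the alpha chain of VLA-4, the Vcam1 receptor, fell by 0.95 (SE 0.14, adjusted p = 0.000238), with all hyperoxic libraries below all normoxic ones. Selplg, which encodes PSGL-1, the ligand of P-selectin on leukocytes, had a log2 fold change of -0.46 (adjusted p = 0.157 by edgeR) with all libraries, and was called lower without Hyperoxia replicate 1 (-0.67, adjusted p = 0.00720). Pan-leukocyte markers were lower in the same libraries, as given above, and their part in these levels was not tested.

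Other adhesion and surface molecules of endothelium were split. Of 12 listed, 11 were in the table and 8 were tested, with 1 called higher and 2 lower. Cd34, a sialomucin of endothelium and stroma, had 42.7, 46.6 and 60.1 CPM in the lowest, median and highest normoxic library and 108, 164 and 193 CPM in hyperoxia, and rose by 1.70 (SE 0.15, adjusted p = 1.82e-06 by edgeR). Cx3cl1, a membrane-bound chemokine that captures leukocytes, fell by 1.35 (SE 0.30, adjusted p = 0.00454). Vwf, the clotting factor stored in the same granules as P-selectin, went down while Selp went up. It had 34.8, 114 and 145 CPM in the lowest, median and highest normoxic library and 19.1, 45.8 and 67.9 CPM in hyperoxia, which gave a log2 fold change of -1.18 (SE 0.35, adjusted p = 0.0241 by edgeR). The Vwf call was lost without Normoxia replicate 1 (adjusted p = 0.0510) and once the library letters entered the fit (adjusted p = 0.0798). Madcam1 and Glycam1, which mark the venules of gut and lymph node, had no count in any library, and Ackr1, a marker of venules, averaged under 1 CPM. With 1 library left out, the list held 2 higher (without Normoxia replicate 3) or 1 to 3 lower (1 without Normoxia replicate 1, 3 without Hyperoxia replicate 1).

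The partners of VE-cadherin at the adherens junction had 1 of 10 called higher and 3 lower. Ptprb, the endothelial phosphatase VE-PTP that binds VE-cadherin, had 942, 1100.2 and 1458 CPM in the lowest, median and highest normoxic library and 479, 497 and 567 CPM in hyperoxia, which gave a log2 fold change of -1.16 (SE 0.13, adjusted p = 2.30e-05 by edgeR), with no overlap between the groups. Cdh2, N-cadherin, fell by 1.16 (SE 0.27, adjusted p = 0.00557), and Mllt4, the afadin gene that links nectins to actin, rose by 0.84 (SE 0.13, adjusted p = 0.000295). Nectin3 fell by 0.50 (SE 0.14, adjusted p = 0.0173), a call lost when any 1 of Normoxia replicates 1, 4, 6 and 7 or Hyperoxia replicates 2, 4, 5 and 6 was left out. The catenins that tie VE-cadherin to actin, Ctnnb1, Ctnnd1, Ctnna1 and Jup, did not pass with all libraries, with log2 fold changes of -0.59, -0.73, 0.27 and -0.45. For Ctnnd1 every hyperoxic library lay below every normoxic one, and it was called lower without Hyperoxia replicate 1 (-0.50, adjusted p = 0.00947 by edgeR).

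Of the tight and gap junction partners, 11 of 12 were tested, 2 were called higher and 1 lower. DESeq2 called 4 higher, and with a minimum of 10 counts in each library 0 were lower. Gja1 (connexin 43) rose by 0.76 (SE 0.19, adjusted p = 0.0106 by edgeR). Gja4 (connexin 37), found mainly in arterial endothelium, had 8.75, 32.1 and 45.9 CPM in the lowest, median and highest normoxic library and 1.07, 5.73 and 15.7 CPM in hyperoxia, and fell by 2.12 on the log2 scale (SE 0.47, adjusted p = 0.00403 by edgeR). Its level in Hyperoxia replicate 1 was 1.07 CPM, and without that library the log2 fold change was -1.91 (adjusted p = 0.00253).

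Cytokines and NF-κB genes are known to switch on Sele, Icam1 and Vcam1. Of 18 listed, 14 were tested, and 1 was called higher and 1 lower, near the share over all genes (22.6% in either direction), while Tnf, Ifng and Lta averaged under 1 CPM. Nfkbia, the inhibitor that NF-κB itself induces, rose by 0.61 (SE 0.18, adjusted p = 0.0220 by edgeR), and Nfkb1, which encodes the p105 precursor, fell by 0.85 (SE 0.21, adjusted p = 0.00706). Without Hyperoxia replicate 1 or 2, and with DESeq2 or limma-voom, 2 genes of the list were called higher. On the deposited values, with library size only, with a minimum of 10 counts and with the library letters in the fit, 2 were called lower.

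Transcription factors of the endothelium had 1 of 15 tested called higher and 7 lower, with a median log2 fold change of -0.42. Sox17, which marks arterial endothelium, averaged 66.6 ± 16.9 CPM (SD, n = 7) under normoxia against 29.5 ± 5.59 CPM (SD, n = 6), a log2 fold change of -1.17 (SE 0.19, adjusted p = 0.000411 by edgeR). Its relative Sox7 fell by 0.96 (SE 0.24, adjusted p = 0.00971). Klf4, a factor induced by shear stress, rose by 0.69 (SE 0.21, adjusted p = 0.0228). Foxf1, a factor of lung capillaries and stroma, fell by 1.19 (SE 0.41, adjusted p = 0.0461), a call lost in 12 of 20 alternatives, including the omission of any 1 of Normoxia replicates 1, 2, 3, 4, 5 and 7 or Hyperoxia replicates 2, 3 and 6. Markers of lung capillary endothelium, 8 of 8 tested, had 1 called higher and 5 lower and summed to 515 to 695 CPM in normoxia and 271 to 451 CPM in hyperoxia.

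**Figure D4:**
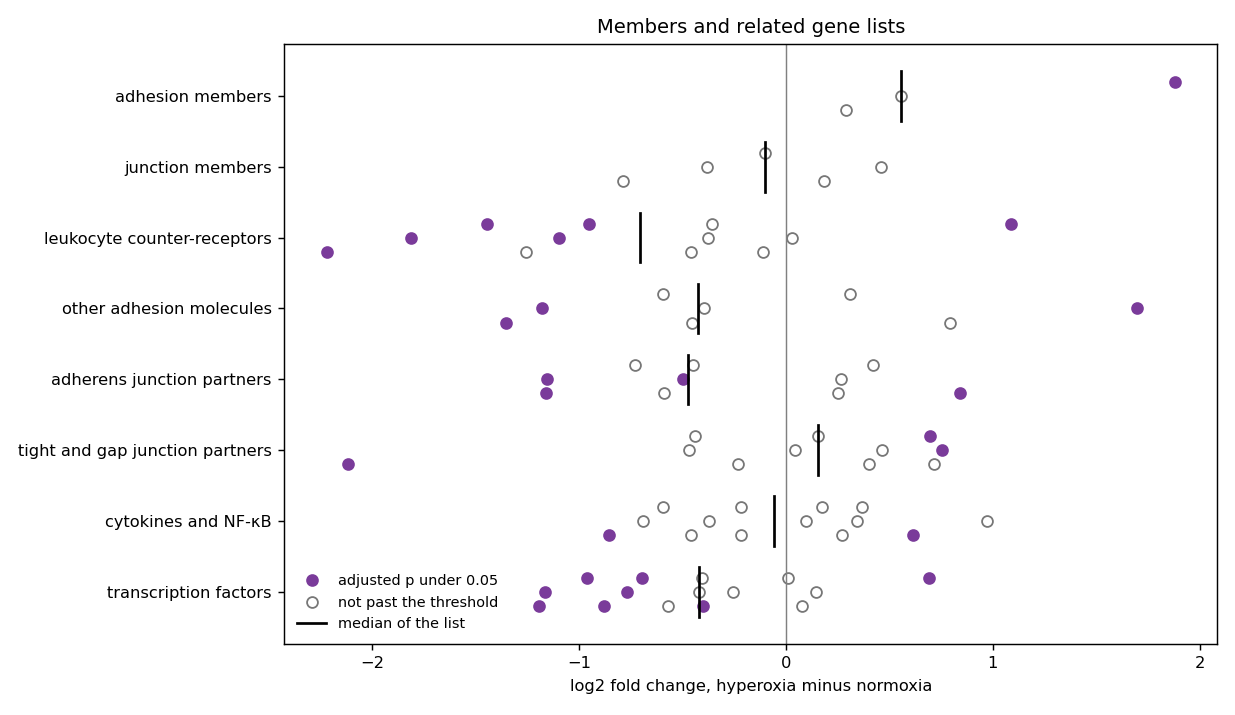
Log2 fold change of every tested gene in the adhesion and junction sets and in 6 related lists, from edgeR's quasi-likelihood test over 13 libraries. Filled points have an adjusted p under 0.05, open points do not, and the black bar is the median of the list. Genes on both sides of 0 passed in each related list, and the counter-receptors had the lowest median, -0.71.

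The other genes lie apart from each other, except that Pecam1 (chr11:106654217-106750628) and Icam2 (chr11:106377656-106388075), both on the minus strand, share a region of chromosome 11. Icam1 is at chr9:21015985-21028817 and Esam at chr9:37528078-37538319, both on the plus strand. Cdh5 is at chr8:104101625-104144511, Cldn5 at chr16:18776847-18778262 and Jam2 at chr16:84774123-84825928, all on the plus strand, and Vcam1 at chr3:116109949-116129688 on the minus strand.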

How the data were processed

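The authors quantified Quant-seq reads with kallisto (build mm10 per the labels) and deposited whole-number counts per gene symbol, without normalization, for 13 libraries. They also deposited log10 values of CPM plus 1, which were reproduced from the counts to within 4.44e-16, and their processing notes name limma 3.54.2. No column was left unmapped. Symbols at low counts were removed with filterByExpr, leaving 12496 genes, and 12826 symbols had no count. The counts were tested with edgeR 4.0.16 in R 4.3.3 (TMM, glmQLFit, glmQLFTest, Benjamini-Hochberg). A prior count of 2 was added for log2 CPM. Standard errors come from the fold change and its F statistic. Intervals and floors cover counting error and the spread between libraries only, and the labels do not say that each library is a separate mouse. All 36 pairs of replicates differed by more than counting error. Alternatives used DESeq2 1.42.0 and limma 3.58.1. The fits were tested on simulated counts.

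The members, the lists and the motifs were chosen with earlier results of these data known. The text names all 10 members, from each related list the genes past the threshold with the 3 largest rises and 3 largest falls, and the 3 genes most like each tested member, except that some genes of the lists are not reported here. Other genes named, such as Selplg, Itga4, the catenins and single marker genes, were chosen after their values were seen. Lists were given as counts and medians without a set test. Locations are from GENCODE vM21 (GRCm38), matched by symbol. Afadin was found under its older symbol Mllt4.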

Additional observations from a re-analysis of the deposited data

Results flagged for a closer look

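In groups of 6 or 7 libraries, the gap of the most extreme library to its nearest neighbour was divided by the range of the group, and ratios above Dixon's critical value for that number of libraries were singled out. This held for 17 of 116 group values over 58 results, where chance, at 1 in 20 groups, would give about 6 if the results were separate, and 13 of the 17 were in Hyperoxia replicate 1. That library was the lowest hyperoxic one for Icam1 (ratio 0.709), Cldn5 (0.652), Gja1 (0.645), Sox17 (0.754), Id1 (0.800), Nme2 (0.753), Cox6a1 (0.693), Rnf187 (0.653) and Selk (0.680). It was the lowest for the adhesion mean (0.672) and the junction mean (0.762), and the highest for Mrpl43 (0.708) and for adhesion minus junction (0.746). Cdh5 had its lowest normoxic level in replicate 4 (0.669) and its lowest hyperoxic level in replicate 6 (0.644). The other 2 were Rras2, highest in Normoxia replicate 2 (0.666), and Ormdl3, lowest in Normoxia replicate 6 (0.626). The results are not separate: genes such as Id1, Nme2, Cox6a1, Rnf187, Selk and Mrpl43 were picked for a library pattern close to that of a member, and the means are made of members, so the chance number is no measure of this excess.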

How the results depend on the processing

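Selp was called higher in all 22 alternatives (log2 fold change 1.60 to 1.99, adjusted p 2.87e-10 to 0.00774), and 1 member was called higher and 0 lower under every change of test, scaling or filter. With each library left out in turn, the members called higher ranged from 1 to 3 and lower from 0 to 1, all genes called higher from 1256 to 1934 and lower from 1049 to 1699, and the adhesion minus junction difference from 0.85 to 1.10. The replicate numbers did not pair the libraries (correlations of deviations -0.325 to 0.272, and 0 of 6 hyperoxic libraries closest to their own number). With the replicate block, 718 genes were higher and 626 lower, and Selp was at 1.89 (adjusted p = 0.00774). The block brought Vwf (adjusted p = 0.0948), Nectin3 (0.0948), Gja1 (0.122), Gja4 (0.0526), Nfkbia (0.0748), Sox7 (0.0830), Klf4 (0.0975) and Foxf1 (0.0959) above the threshold of 0.05, and called 3 endothelial factors lower in place of 7, and 1 tight and gap junction partner higher and 0 lower. Leaving out Sele, Selp, both of these or Pecam1 was chosen after seeing the data. Directions turned, without a call, on the deposited log10 values tested with limma for Icam1 (-0.028), Cldn5 (-0.019), Id1 (-0.16), Ecscr (-0.28) and Atl2 (-0.12). They turned for Jam2 without Hyperoxia replicate 1 (0.060) and relative to pan-endothelial markers (0.017), and for Ecscr with limma-voom (-0.058) and without Hyperoxia replicate 2 (-0.066). Atl2 turned with library size only (-0.029), the replicate block (-0.079), a minimum of 10 counts (-0.015) and without Hyperoxia replicate 3 (-0.12). The causes were not tested. Scaling by library size only moved the median of all genes from -0.03 to -0.10, with 1179 genes higher and 1579 lower. On the deposited values, where both test and scaling changed, it was -0.16, with 1097 higher and 1729 lower. Over the fits with 1 library left out, Jam2 ranged from -0.23 to 0.060, Ecscr from -0.066 to 0.42 and Atl2 from -0.12 to 0.22. Esam could not be fitted at 10 counts in every library. Depth limits Sele, and small counts limit Selp.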
